A study of Mus musculus with 8 samples.

Results

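Kupffer cell identity genes, the transcripts by which resident liver macrophages are recognized, were examined in the livers of hypercholesterolemic mice given isoginkgetin (ISOGK). The genes were chosen by symbol: *Clec4f*, *Timd4*, *Vsig4*, *Cd5l*, *Marco*, *Cd163*, *Adgre1*, *Csf1r* and *Folr2*, which make 9 of the 16540 gene symbols in the count table. In the mm10 (GRCm38) GENCODE annotation they lie on 8 chromosomes, with *Clec4f* (ENSMUSG00000014542) at chr6:83644542-83656187, *Timd4* (ENSMUSG00000055546) at chr11:46810800-46844332, *Vsig4* (ENSMUSG00000044206) at chrX:96247203-96293438, *Cd5l* (ENSMUSG00000015854) at chr3:87357881-87371073, *Marco* (ENSMUSG00000026390) at chr1:120474538-120505024, *Cd163* (ENSMUSG00000008845) at chr6:124304656-124330527, *Adgre1* (ENSMUSG00000004730) at chr17:57358691-57483527, *Csf1r* (ENSMUSG00000024621) at chr18:61100598-61132149, *Folr2* (ENSMUSG00000032725) at chr7:101839988-101857194. All 9 passed the filter on low counts that left 12307 genes for testing. ISOGK is a biflavonoid from *Ginkgo biloba* that the study examined as an inhibitor of ATP citrate lyase. Liver mRNA was sequenced from male *Apoe*-/- mice on a Western diet that received vehicle (4 libraries) or ISOGK at 20 mg/kg/day (4 libraries) for 8 weeks, by intraperitoneal injection. The vehicle columns are named for DMSO. Both groups carried the *Apoe* deletion and ate the diet, so neither group shows a liver without hypercholesterolemia, and the ages of the sequenced mice are not given in the sources used here. Each library was taken as 1 mouse. As the labels do not say that the libraries came from separate animals, the p-values measure the spread between these libraries.

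Kupffer cells line the liver sinusoids, where they clear bacteria, aged red cells, modified lipoproteins and dying cells from portal blood. They are seeded before birth, renew themselves locally, and depend on signaling through the CSF1 receptor and on tissue factors that include LXR alpha and ID3. When resident cells are lost, as can happen in fatty liver, monocytes fill the niche and gain the identity genes at different speeds, with *Clec4f* appearing early and *Timd4* late. Whole liver was sequenced here, so fewer Kupffer cells and less RNA of a gene per cell cannot be told apart in any value that follows.

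The libraries held between 17457106 and 24461854 counts. The hepatocyte transcript *Alb* ranged from 105200 to 141300 CPM (counts per 1000000, with library sizes scaled by TMM factors, which correct for composition). *Apoe*, the deleted gene, still had between 3252 and 6489 counts in each library, and a gene-level count does not show whether the transcript is intact. Summed skeletal muscle transcripts reached 80.3 CPM in a single vehicle library and stayed at or below 0.54 CPM in the ISOGK mice. Vehicle mouse 1 and ISOGK mouse 4 stood apart from the other mice in several identity genes, so the comparison is also given without both, an alternative chosen after seeing the data.

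None of the 9 identity genes differed between ISOGK and vehicle at an adjusted p under 0.05, by edgeR's quasi-likelihood test adjusted over all 12307 genes. *Cd5l*, an LXR-controlled secreted protein of macrophages, came nearest, with a mean 0.763 times that of vehicle. *Marco*, *Timd4*, *Adgre1* and *Vsig4* had lower ISOGK means with intervals that spanned no change, *Csf1r* and *Folr2* were nearly level, and *Clec4f* and *Cd163* had estimates above 0. Of all tested genes 929 were called (7.55%), 423 of them lower (3.44%) and 506 higher (4.11%) with ISOGK. The count of calls was 511, 379, 496 and 550 without vehicle mice 1 to 4. It was 985, 471, 1235 and 679 without ISOGK mice 1 to 4. Scaling by library size alone changed the split of calls to 804 lower and 262 higher and moved the median of all genes from 0.00 to -0.13 on the log2 scale. Of the 9 genes, 1 (*Cd5l*) had an unadjusted p under 0.05, against 2973 of all tested genes (24.2%), and it alone had groups that did not overlap, against 1881 of all tested genes (15.3%). DESeq2's Wald test called 1 of the 9, again *Cd5l*. The fold change was negative for 7 of 9 genes with a median of -0.39, beside a median of 0.00 over all genes tested. Without vehicle mouse 1 and ISOGK mouse 4 the median was -0.13 and 7 of 9 estimates were negative, and none of the 9 passed the test, where 447 of all genes did.

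**Figure D1:**
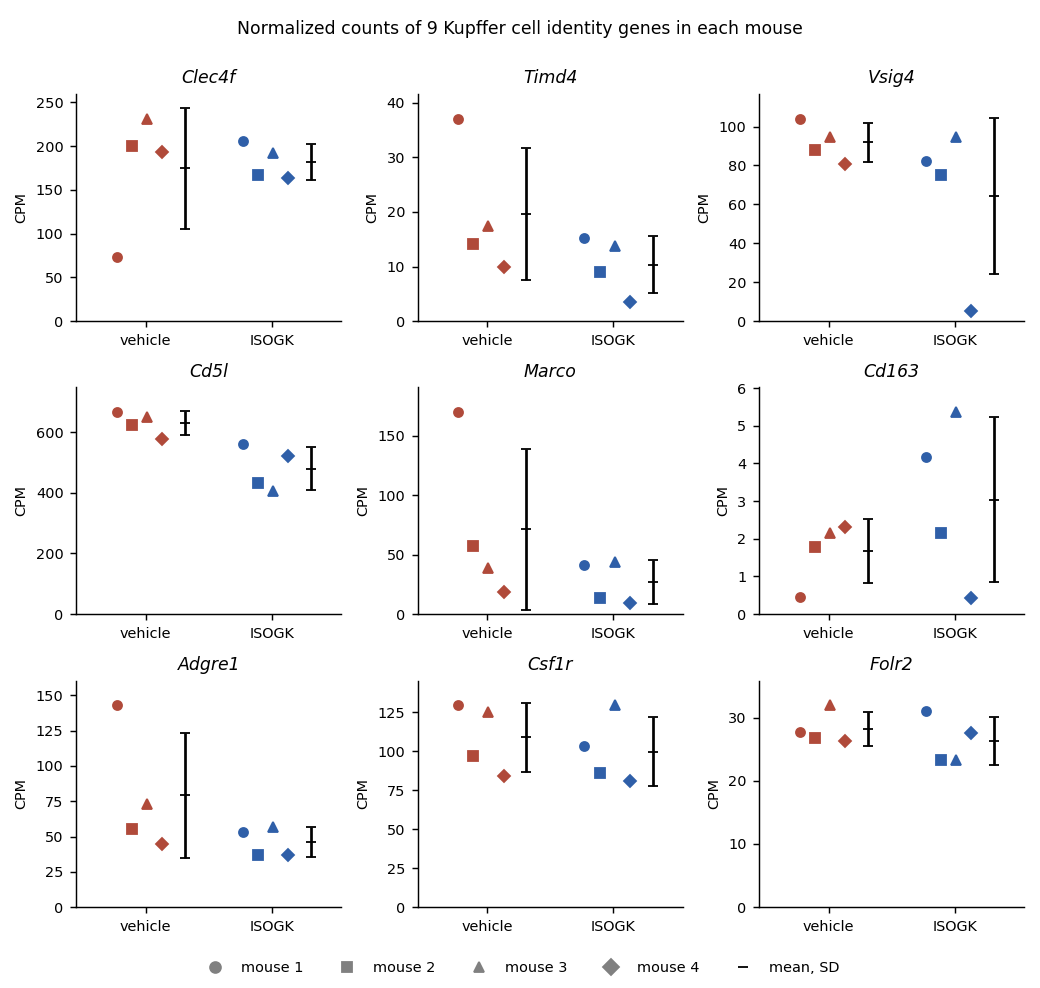
CPM (linear axes from 0) of each identity gene in 4 vehicle mice (red) and 4 ISOGK mice (blue), with the mean and SD of each group in black and a marker shape for each mouse number. *Cd5l* is the panel in which the groups do not overlap, vehicle mouse 1 sits far from its group in *Clec4f*, *Timd4*, *Marco* and *Adgre1*, and ISOGK mouse 4 lies near 0 in *Vsig4*, at 5.34 CPM.

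*Cd5l* encodes CD5-like protein, also called AIM, a soluble scavenger-receptor-family protein that macrophages release into blood. Its CPM in vehicle mice 1 to 4 was 667, 622.5, 649 and 577. In ISOGK mice 1 to 4 it was 560.4, 432, 407 and 520.0. Each ISOGK mouse was below each vehicle mouse, although vehicle mouse 4 and ISOGK mouse 1 were close. The group means were 629 ± 39.3 and 479.8 ± 72.4 CPM (SD, n = 4 each). The log2 fold change was -0.39 with a standard error of 0.12 and a 95% interval from -0.64 to -0.14, and edgeR's unadjusted p was 0.00561 and its adjusted p 0.0639. The exact permutation test over mice gave a two-sided p of 0.0286, the smallest that 4 against 4 allows. Any gene whose groups do not overlap gets this p, so it repeats the lack of overlap, which 15.3% of all tested genes had. *Cd5l* passed the threshold in 3 of 17 alternatives, over which the adjusted p ranged from 0.0159 to 0.158 with a negative fold change in each. One of these left out ISOGK mouse 1 (log2 fold change -0.47, edgeR adjusted p = 0.0337).

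The C-type lectin *Clec4f*, in mice largely restricted to Kupffer cells, showed no such difference. Vehicle mouse 1 had 73.0 CPM, and vehicle mice 2 to 4 had 199.9, 231 and 193. ISOGK mice 1 to 4 had 205, 166.5, 192.5 and 163. The ISOGK values lay inside the vehicle range, and the low vehicle mouse was 2.23-fold below the next lowest of the 8. The group means were 174 ± 69.6 and 182 ± 20.5 CPM, with a log2 fold change of 0.06 (SE 0.31, 95% interval -0.64 to 0.76, edgeR adjusted p = 0.929). The estimate turned to -0.20 without vehicle mouse 1 and to -0.075 with library size alone. The interval allows a change between 0.642-fold and 1.69-fold.

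*Timd4* encodes TIM-4, a phosphatidylserine receptor for dying cells that marks long-resident Kupffer cells. Its CPM was 37.1, 14.04, 17.4 and 9.87 in vehicle mice 1 to 4. It was 15.2, 8.92, 13.7 and 3.51 in ISOGK mice 1 to 4. Vehicle mouse 1 was the highest and ISOGK mouse 4 the lowest, and the other 6 mice of both groups lay between 8.92 and 17.4 CPM. ISOGK over vehicle gave a log2 fold change of -0.92 (SE 0.55, 95% interval -2.20 to 0.36), with an edgeR adjusted p of 0.356. Without vehicle mouse 1 it was -0.42, without ISOGK mouse 4 -0.63, and without both -0.13.

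*Vsig4*, the complement receptor CRIg that captures opsonized bacteria from blood, was even in 7 mice and very low in 1. Vehicle mice 1 to 4 had 104, 87.7, 94.9 and 80.9 CPM. ISOGK mice 1 to 3 had 82.5, 75.0 and 94.4 CPM, and ISOGK mouse 4 had 5.34 CPM, from 102 counts. That mouse was 14.04-fold below the next lowest, the widest such gap of the 6815 tested genes with a mean of at least 10 CPM when ISOGK mouse 4 was set against the other mice. The log2 fold change was -0.51 (SE 0.71, 95% interval -2.22 to 1.19, edgeR adjusted p = 0.714), and without ISOGK mouse 4 it was -0.13.

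The scavenger receptor *Marco*, which binds bacteria and modified lipoproteins, had the widest interval of the 9 genes. Its CPM was 170.4, 57.6, 38.9 and 18.6 in vehicle mice 1 to 4. It was 41.4, 13.8, 43.9 and 9.17 in ISOGK mice 1 to 4. Vehicle mouse 1 was 2.96-fold above the next highest mouse, and the remaining vehicle mice overlapped the ISOGK mice. Its log2 fold change was -1.40 (SE 0.84, 95% interval -3.41 to 0.62), with an edgeR adjusted p of 0.371. It was -0.51 without vehicle mouse 1 and -0.22 without both vehicle mouse 1 and ISOGK mouse 4.

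*Adgre1*, which encodes the F4/80 antigen of mouse macrophages, followed a similar order of mice. Vehicle mice 1 to 4 had 143, 55.3, 73.2 and 45.02 CPM. ISOGK mice 1 to 4 had 53.5, 37.1, 57.1 and 37.0 CPM. Vehicle mouse 1 was again the highest, by 1.96-fold over the next mouse, and the other vehicle mice overlapped the treated ones. Its log2 fold change was -0.78 (SE 0.37, 95% interval -1.64 to 0.09, edgeR adjusted p = 0.251), and it was -0.33 without vehicle mouse 1.

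*Csf1r*, the receptor for the growth factors CSF1 and IL-34, and *Folr2*, the folate receptor beta of resident macrophages, were nearly level. *Csf1r* was at 129.8, 96.7, 125.5 and 84.2 CPM in vehicle mice 1 to 4 and at 103, 85.9, 129.4 and 80.7 CPM in ISOGK mice 1 to 4. *Folr2* was at 27.6, 26.7, 32.0 and 26.3 CPM in vehicle mice 1 to 4 and at 31.1, 23.2, 23.3 and 27.5 CPM in ISOGK mice 1 to 4. The groups overlapped for both genes. The log2 fold changes were -0.13 (95% interval -0.51 to 0.25, edgeR adjusted p = 0.702) for *Csf1r* and -0.10 (95% interval -0.35 to 0.15, edgeR adjusted p = 0.648) for *Folr2*. The intervals reached down to 0.702-fold for *Csf1r* and 0.783-fold for *Folr2*, and the *Csf1r* estimate was 0.055 without vehicle mouse 1 and ISOGK mouse 4. *Csf1r* overlaps *Hmgxb3* on the opposite strand, and *Folr2* overlaps an antisense transcript, and whether reads were counted by strand is not given in the sources used here. *Hmgxb3* had a mean of 15.6 CPM in vehicle and 16.1 CPM in ISOGK mice.

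*Cd163*, the receptor that takes up hemoglobin bound to haptoglobin, was scarce and varied in both directions. Its CPM was 0.452, 1.78, 2.14 and 2.32 in vehicle mice 1 to 4 and 4.17, 2.16, 5.37 and 0.419 in ISOGK mice 1 to 4. The ISOGK mice held both the highest and the lowest value. The lowest rested on 8 counts, with an exact Poisson 95% interval of 3.45 to 15.8 counts that covers counting error only. Its log2 fold change was 0.84 (SE 0.67, 95% interval -0.69 to 2.36, edgeR adjusted p = 0.497).

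**Figure D2:**
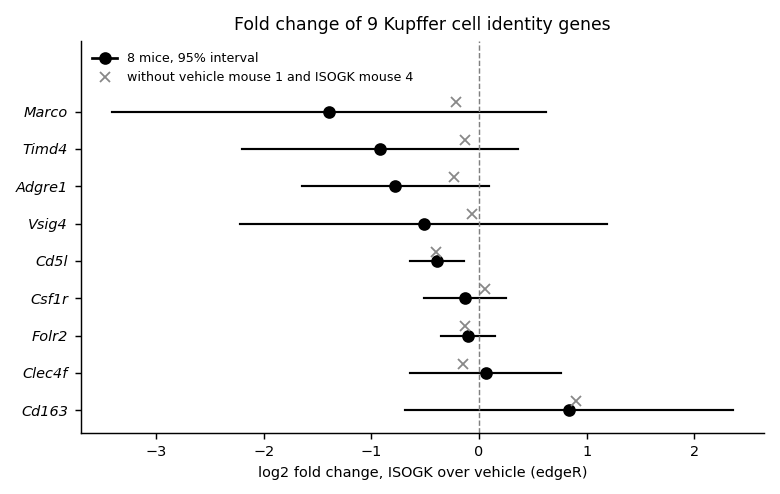
The log2 fold change of each identity gene, ISOGK over vehicle, by edgeR with 8 mice (points, with 95% intervals as bars) and without vehicle mouse 1 and ISOGK mouse 4 (crosses). The *Cd5l* bar ends at -0.14, short of 0, and the other 8 bars span 0; the crosses of *Marco*, *Timd4*, *Adgre1* and *Vsig4* lie between -0.23 and -0.06.

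Set against each other per length, the level of *Cd5l* was far above the rest. Dividing CPM by the total exon length in kilobases, vehicle livers had 309 ± 19.3 for *Cd5l*, 70.6 ± 28.2 for *Clec4f* and 61.9 ± 6.69 for *Vsig4* (CPM per kb, SD, n = 4). *Marco* at 37.1 ± 35.3, *Adgre1* at 24.5 ± 13.7, *Csf1r* at 18.9 ± 3.83, *Folr2* at 18.2 ± 1.69 and *Timd4* at 9.03 ± 5.56 came next, and *Cd163* was last at 0.307 ± 0.155. *Cd5l* and *Cd163* were separated from their neighbors in all vehicle mice, and from *Clec4f* to *Timd4* the ranges of neighboring genes overlapped. In ISOGK livers the order began with *Cd5l* at 236 ± 35.5, *Clec4f* at 73.6 ± 8.29 and *Vsig4* at 43.3 ± 27.0 CPM per kb. There *Clec4f* did not overlap *Vsig4*. In vehicle livers that overlap came from vehicle mouse 1 alone, with *Clec4f* at 29.5 CPM per kb. In ISOGK livers *Csf1r* at 17.3 ± 3.801 and *Folr2* at 17.0 ± 2.45 stood before *Adgre1* at 14.3 ± 3.28 and *Marco* at 14.1 ± 9.42, with overlapping ranges. Vehicle mouse 1 held the highest vehicle values of *Marco* and *Adgre1*, 88.5 and 44.3 CPM per kb. *Timd4* at 4.75 ± 2.42 and *Cd163* at 0.555 ± 0.400 CPM per kb closed the order in ISOGK livers as in vehicle livers.

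The identity genes differed more between mice of the same group than most genes of their level. The SD of log2 CPM within groups was compared with that of tested genes whose mean CPM was within a factor of 2. It exceeded that of over 90% of such genes for 7 of the 9 members. The within-group SD was 1.40 for *Vsig4*, 1.29 for *Cd163* and 1.23 for *Marco*, above 99.8%, 99.6% and 99.9% of genes of like level. It was 0.88 for *Timd4*, 0.57 for *Adgre1*, 0.55 for *Clec4f* and 0.30 for *Csf1r*, above 99.6%, 98.2%, 97.6% and 90.6% of genes of like level. *Cd5l* and *Folr2*, with an SD of 0.17 each, exceeded 53.5% and 55.5% of such genes. The median SD was 0.57 for the members, 0.20 for 18 pan-macrophage genes such as *C1qa* and *Cd68*, and 0.21 for all genes tested. Among the other lists described below, it was higher for monocyte (0.67), lymphocyte (0.67) and cholangiocyte genes (0.69). It was 0.38 for stellate cell, 0.32 for lipid-associated macrophage, 0.28 for other Kupffer and 0.16 for sinusoidal endothelial genes. These medians were not matched for level, and a wide spread was not particular to the members.

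**Figure D3:**
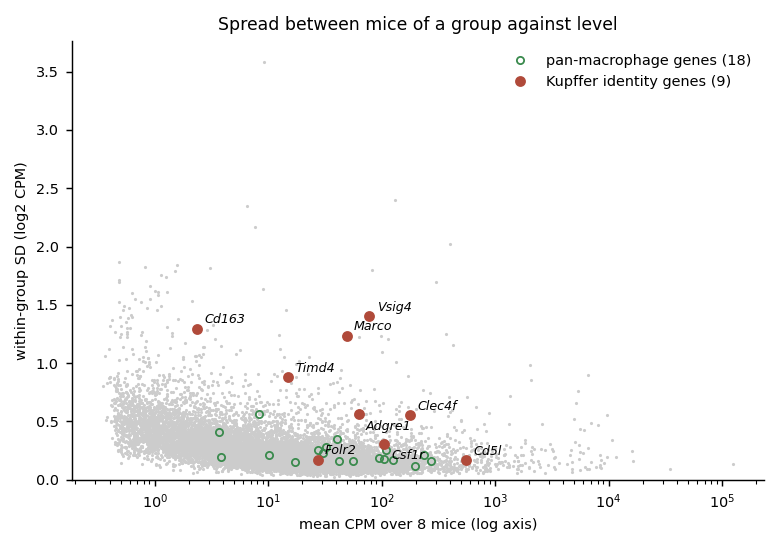
Within-group SD of log2 CPM against mean CPM over 8 mice (log axis) for all tested genes (gray), 18 pan-macrophage genes (open green circles) and the 9 identity genes (red). *Vsig4*, *Marco*, *Cd163* and *Timd4* lie far above the gray cloud at their level, while *Cd5l* and *Folr2*, both with an SD of 0.17, lie inside it.

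A pair of mice carried much of the spread of some members but not of others. Without vehicle mouse 1 and ISOGK mouse 4 the within-group SD was 0.14 for *Vsig4*, 0.15 for *Clec4f*, 0.41 for *Timd4*, 0.48 for *Cd163* and 0.34 for *Adgre1*, while *Marco* stayed at 0.88 and *Csf1r* at 0.29. *Cd5l* and *Folr2* were at 0.18 and 0.20. Vehicle mouse 1 held the highest value of the 8 mice in 6 of 9 members, and ISOGK mouse 4 the lowest in 6 of 9. How often these mice were the extremes over all tested genes was not counted, and some places were near-ties. *Csf1r* was at 129.8 CPM in vehicle mouse 1 and 129.4 in ISOGK mouse 3. *Adgre1* was at 37.04 CPM in ISOGK mouse 4 and 37.1 in ISOGK mouse 2. *Cd163* had 8 counts in ISOGK mouse 4 and 9 in vehicle mouse 1. In vehicle mouse 1, 4 of 6815 genes were more than 2-fold above every other mouse, among them *Marco*, *Cd207* and *Timd4*, and 1 gene was more than 2-fold below every other mouse, which was *Clec4f*. Vehicle mouse 1 thus had high *Timd4* and *Marco* beside low *Clec4f* in the same liver. In ISOGK mouse 4, 16 genes stood more than 2-fold above and 11 more than 2-fold below the other mice. The 16 were led by *Saa2*, *Saa1* and *Lcn2* and included *Orm1*, *Hp* and the fibrinogen genes, which are acute-phase genes, and the 11 were led by *Vsig4* and included *Timd4*. *Saa1* was at 1808 CPM in ISOGK mouse 4. The part of the acute-phase genes in the *Vsig4* value was not tested.

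**Figure D4:**
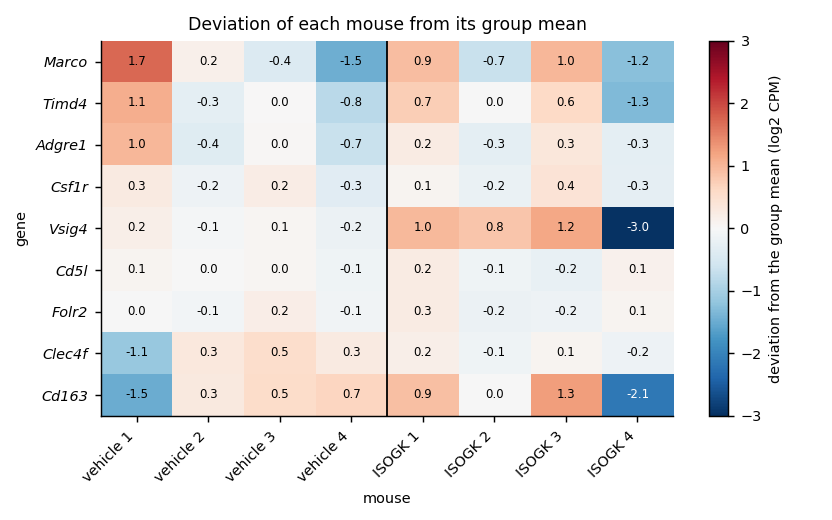
Deviation of each mouse from its group mean in log2 CPM for the 9 identity genes (rows) in 8 mice (columns), from blue for below to red for above, with each value printed. Vehicle mouse 1 is red for *Marco*, *Timd4* and *Adgre1* and blue for *Clec4f* and *Cd163*, and ISOGK mouse 4 is deep blue for *Vsig4* and *Cd163*.

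Among the members, *Marco*, *Timd4*, *Adgre1*, *Csf1r* and, by rank, *Vsig4* had similar orders of mice, although no pair passed after adjustment. With group means removed, Pearson's r over the 8 mice was 0.917 for *Timd4* with *Marco*, 0.891 for *Marco* with *Adgre1* and 0.834 for *Adgre1* with *Csf1r*. Spearman's rho was 0.881, 0.857 and 0.881 for these pairs, and r without the 2 mice farthest from the median of the first gene was 0.888, 0.755 and 0.886. The exact permutation p of r within groups was 0.00694, 0.0156 and 0.0156, and adjusted over 36 pairs it was 0.0625, 0.0803 and 0.0803. The exact permutation p of rho was 0.0208, 0.0208 and 0.00868, adjusted to 0.0937, 0.0937 and 0.0625. *Vsig4* had a rho of 0.786 with *Timd4*, 0.738 with *Adgre1*, 0.714 with *Csf1r* and 0.690 with *Marco*. For these the exact permutation p of rho was 0.00521, 0.00174, 0.0260 and 0.0104, adjusted to 0.0625, 0.0625, 0.104 and 0.0625. Its r with these 4 genes was 0.773, 0.329, 0.525 and 0.552, and without ISOGK mouse 4 it was 0.851, 0.888, 0.973 and 0.853. In all, 7 of 36 pairs had r over 0.8, 11 pairs had an unadjusted p under 0.05, and none passed after adjustment. The 576 permutations within groups allow no p below 0.00174. A pair alone at that exact permutation p is adjusted to 0.0625 over 36 pairs and cannot pass, so the lack of passing pairs says little. *Cd5l* and *Folr2* formed a pair of their own, with r = 0.873 and rho = 0.905, an exact permutation p of 0.0382 and 0.0521, adjusted to 0.131 and 0.170, and r = 0.742 without the 2 farthest mice. *Clec4f* ran against *Adgre1* with r = -0.677 and rho = -0.429 (exact permutation p = 0.260 and 0.380, adjusted 0.670 and 0.929), but that sign rested on vehicle mouse 1, without which r was 0.942. All genes of a mouse share its library and depth.

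The DNA upstream of the members whose levels parted between mice, and of *Cd5l*, is shown so that letters recognized by macrophage factors can be seen. The RefSeq promoter table (GRCm38.p6) held 8 windows for 7 of the 9 genes. In the sequences, 5′ to 3′ on the gene's strand and cut to at most 250 bases before the start site and outside the annotated gene, capitals mark GAGGAA (the core letters bound by PU.1, the lineage factor of macrophages) and TGCTGA (a MAF recognition half-site), on either strand. These motifs do not overlap each other here.
Marco (chr1:120505025-120505274, strand -): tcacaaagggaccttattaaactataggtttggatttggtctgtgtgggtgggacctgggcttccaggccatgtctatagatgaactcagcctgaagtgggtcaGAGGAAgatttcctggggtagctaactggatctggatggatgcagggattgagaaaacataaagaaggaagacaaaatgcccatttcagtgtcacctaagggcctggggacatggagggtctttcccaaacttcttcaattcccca
Timd4 (chr11:46810549-46810798, strand +): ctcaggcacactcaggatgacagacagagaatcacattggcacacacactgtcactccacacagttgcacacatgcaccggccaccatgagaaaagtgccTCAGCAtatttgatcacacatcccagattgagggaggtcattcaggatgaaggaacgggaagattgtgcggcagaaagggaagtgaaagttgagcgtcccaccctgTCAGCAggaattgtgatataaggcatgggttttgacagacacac
Vsig4 (chrX:96293439-96293688, strand -): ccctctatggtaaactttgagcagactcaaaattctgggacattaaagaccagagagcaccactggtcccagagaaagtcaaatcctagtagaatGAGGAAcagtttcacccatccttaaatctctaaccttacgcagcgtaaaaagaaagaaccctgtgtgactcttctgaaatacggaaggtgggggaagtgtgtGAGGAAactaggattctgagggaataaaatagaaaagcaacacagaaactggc
Clec4f (chr6:83656188-83656366, strand -): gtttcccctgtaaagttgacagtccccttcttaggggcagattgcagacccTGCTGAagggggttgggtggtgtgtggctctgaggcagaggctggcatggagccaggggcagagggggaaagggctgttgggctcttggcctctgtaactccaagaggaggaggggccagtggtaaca
Cd5l (chr3:87357631-87357880, strand +): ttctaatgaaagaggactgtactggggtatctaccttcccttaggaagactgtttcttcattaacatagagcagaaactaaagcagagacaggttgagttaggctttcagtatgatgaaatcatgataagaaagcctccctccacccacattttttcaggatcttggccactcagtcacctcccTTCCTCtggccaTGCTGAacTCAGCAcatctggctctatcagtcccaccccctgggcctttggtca
Cd163 (chr6:124304401-124304650, strand +): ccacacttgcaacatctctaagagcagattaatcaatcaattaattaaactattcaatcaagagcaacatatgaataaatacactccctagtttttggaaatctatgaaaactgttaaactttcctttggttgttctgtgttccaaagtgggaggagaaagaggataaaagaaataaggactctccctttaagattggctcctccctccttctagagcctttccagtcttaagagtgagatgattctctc
*Marco* held GAGGAA at position -146 from its start site and *Vsig4* at -155 and -53, and *Cd5l* held its reverse complement at -66. *Timd4* and *Clec4f* held no GAGGAA in this window, and *Cd163* held neither motif. TGCTGA was in *Clec4f* at -199 and, on the reverse strand, in *Timd4* at -150 and -44, and *Cd5l* held a forward and a reverse copy at -54 and -46. In all, 3 of the 7 genes had GAGGAA and 4 of 7 had TGCTGA, the fourth being *Folr2* (not shown), at -220 and -19. Of 32851 promoter windows, 23.3% and 16.1% held these motifs. The shares are not strictly alike, since *Folr2* was counted over 2 windows and the *Clec4f* window was shorter than 250 bases. *Marco* and *Timd4* shared neither motif in these letters.

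Other genes known from Kupffer cells were examined beside the 7.55% of all genes that were called. Of 17 listed, 16 were tested, 1 was higher and none lower by edgeR's adjusted p, and the median log2 fold change was -0.23. The gene that rose was *Lrp5*, a Wnt co-receptor, from 86.0 ± 8.35 to 119 ± 20.1 CPM (log2 fold change 0.46, adjusted p = 0.0434). The unadjusted p was under 0.05 for 7 of the 16, beside 24.2% of all genes tested. *Cd207*, which encodes langerin, was at 70.5, 13.2, 23.4 and 14.02 CPM in vehicle mice 1 to 4 and at 10.7, 10.9, 26.1 and 10.8 CPM in ISOGK mice 1 to 4, so that vehicle mouse 1 stood above the rest as it did in *Marco* and *Timd4*. The potassium channel gene *Kcna2* was at 17.01, 14.4, 13.4 and 10.9 CPM in vehicle and 8.88, 5.86, 8.31 and 2.88 CPM in ISOGK mice, without overlap, with a log2 fold change of -1.10 and an edgeR adjusted p of 0.050 that did not pass.

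Of 18 genes shared by all macrophages, 1 was called and 17 were not, beside 7.55% of all genes. The log2 fold change was negative for 16 of the 18, with a median of -0.20. The gene that fell was *Cd68*, a lysosomal glycoprotein, from 50.6 ± 4.79 to 34.0 ± 4.23 CPM (log2 fold change -0.58, edgeR adjusted p = 0.00900). The summed level of the 18 genes was between 1341 and 1682 CPM in vehicle and between 1125 and 1440 CPM in ISOGK mice. The 9 members together summed to between 1037 and 1353 CPM in vehicle and between 844 and 1097 CPM in ISOGK mice, and *Cd5l* made up 42.1% to 61.4% of that sum in each mouse. The log2 ratio of the members' sum to the pan-macrophage sum was -0.35 ± 0.05 in vehicle and -0.47 ± 0.09 in ISOGK mice (SD, n = 4 each). The groups overlapped, with vehicle mouse 3 at -0.40 and ISOGK mouse 1 at -0.39. The difference was -0.12, beside a pooled SD of 0.07, and against the summed *Ptprc*, *Laptm5*, *Tyrobp*, *Fcer1g* and *Spi1* it was -0.06. No test was made on this ratio.

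Among 30 ligands, partners and macrophage factors around CSF1R, 3 fell and none rose, beside 3.44% lower and 4.11% higher of all genes. The median log2 fold change was -0.19. Of the 3 that fell, *Zeb2* and *Tgfbr1* are described. The ligands of CSF1R themselves, *Csf1* and *Il34*, were not called (edgeR adjusted p = 0.846 and 0.365). *Zeb2*, a factor needed to keep Kupffer cell identity, went from 17.7 ± 1.98 to 10.6 ± 2.89 CPM (log2 fold change -0.73, adjusted p = 0.0274, edgeR). *Tgfbr1*, a TGF-beta receptor chain, went from 23.3 ± 2.42 to 16.6 ± 2.11 CPM (-0.49, adjusted p = 0.0318, edgeR). These genes are expressed in other liver cells as well.

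By function, the lists of receptors and iron genes held between 1 and 3 called genes each, beside 7.55% of all genes. Of 23 tested scavenger and apoptotic cell receptors and bridging proteins, a list that also holds *Marco*, *Timd4* and *Cd163*, 1 rose and 1 fell, with a median log2 fold change of -0.24. *Msr1*, the class A scavenger receptor, fell from 12.6 ± 0.522 to 8.62 ± 1.59 CPM (-0.55, edgeR adjusted p = 0.0322), and *Pros1*, a bridging ligand for dying cells that hepatocytes make, rose from 67.9 ± 6.81 to 96.5 ± 11.1 CPM (0.51, adjusted p = 0.0159). Of 14 genes of heme and iron recycling, *Cd163* among them, 2 rose and 1 fell around a median of -0.02. The ferritin light chain *Ftl1* rose from 1655 ± 109.8 to 2550 ± 545 CPM (0.62, edgeR adjusted p = 0.0199), the heme transporter *Slc48a1* rose by 0.39 (adjusted p = 0.0250), and the transferrin receptor *Tfrc* fell by 0.81 on the log2 scale (adjusted p = 0.0335). Of 15 tested complement and Fc receptors and their ligands, *Vsig4* among them, *Itgb2*, the integrin beta chain of leukocytes, fell by 0.50 on the log2 scale (edgeR adjusted p = 0.0367), none rose, and the median was -0.04.

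Markers of other macrophage states were counted beside the identity genes and beside all tested genes, of which 3.44% were called lower and 4.11% higher. Of 11 genes of lipid-associated macrophages, 4 fell and none rose, with a median log2 fold change of -0.25. *Gpnmb*, a glycoprotein of lipid-laden macrophages, fell from 162 ± 14.8 to 71.0 ± 5.45 CPM (-1.19, edgeR adjusted p = 6.48e-05), and *Lpl*, *Lgals3* and *Atp6v0d2* fell with log2 fold changes of -0.99, -0.63 and -1.49 (adjusted p = 0.00951, 0.0387 and 0.0361). Of 11 monocyte genes, *Chil3* and *Plac8* rose by log2 2.26 and 0.74 (edgeR adjusted p = 0.0162 and 0.0400), from 0.885 ± 0.484 to 4.33 ± 2.32 CPM and from 6.24 ± 1.13 to 10.4 ± 2.85 CPM, and none fell. The summed monocyte level was between 20.8 and 43.9 CPM in vehicle and between 33.9 and 48.4 CPM in ISOGK mice, with overlap. The part of these cells in the identity gene values was not tested.

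**Figure D5:**
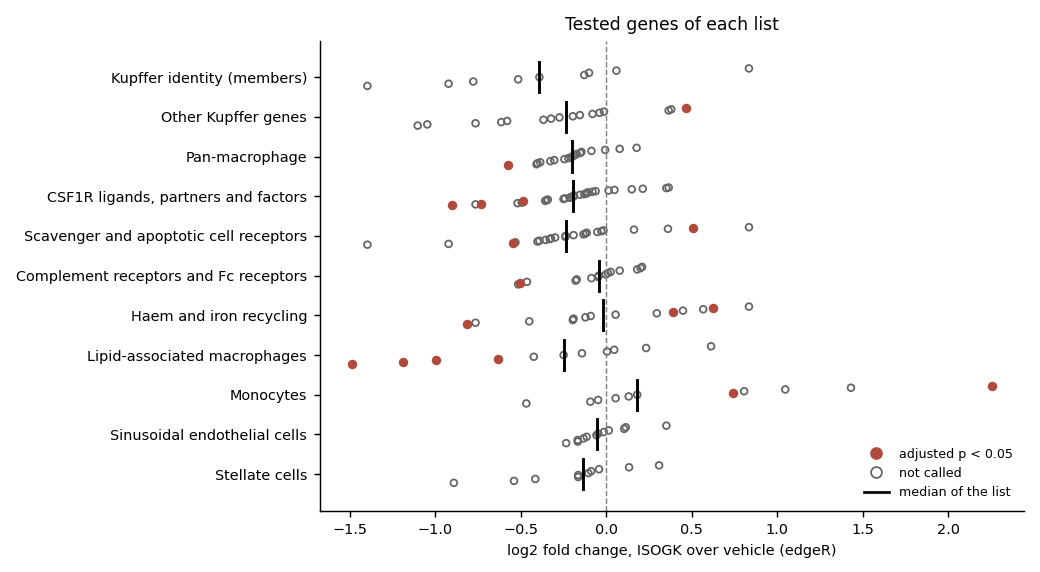
The log2 fold change, ISOGK over vehicle, of every tested gene in 11 lists, with filled red points for adjusted p under 0.05, open points for genes not called and a black bar for the list's median. The identity genes have no filled point around a median of -0.39, and the lipid-associated list has 4 filled points, all to the left of 0.

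Markers of other liver cell types were counted in the same way, beside the 7.55% of all genes that were called (3.44% lower and 4.11% higher). None of 12 sinusoidal endothelial genes was called, with a median log2 fold change of -0.05 and sums between 520 and 579 CPM in vehicle and between 494 and 569.6 CPM in ISOGK mice. *Bmp2* and *Pecam1* had the smallest adjusted p in that list, 0.109 and 0.217. None of 10 stellate cell genes was called, with a median of -0.13, *Lrat* at an edgeR adjusted p of 0.130 and *Rgs5* at 0.204. None of 9 hepatocyte genes was called, with *Fgb* at an adjusted p of 0.391 and *Ttr* at 0.528. Of 5 tested neutrophil genes *S100a9* rose by log2 1.31 (adjusted p = 0.0149), of 5 tested cholangiocyte genes *Sox9* rose by 0.51 (adjusted p = 0.0494), and of 5 tested lymphocyte genes none was called, with *Gzma* at 0.104 and *Ptprc* at 0.397. All 5 neutrophil and all 5 cholangiocyte genes had a positive log2 fold change, with medians of 1.31 and 0.61. Their summed levels were between 9.78 and 17.1 CPM in vehicle and 11.6 and 38.9 CPM in ISOGK mice for neutrophils, and between 27.6 and 34.8 CPM and 28.3 and 69.2 CPM for cholangiocytes, with overlap in both. The unadjusted p was under 0.05 for 1 of 12 endothelial, 2 of 10 stellate, 0 of 9 hepatocyte, 4 of 5 neutrophil, 4 of 5 cholangiocyte and 1 of 5 lymphocyte genes, beside 24.2% of all genes.

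The genes most like the members over the 8 mice were sought among 11459 tested genes with a mean of at least 1 CPM, by Pearson's r of group-centered log2 CPM. With the mean of the 9 members r was 0.996 for *Cped1*, 0.993 for *4930402H24Rik* and 0.983 for *Casp1*, *Kcna2* and *Rprd1a*. *Cped1* had 34.9, 33.5, 34.0 and 30.1 CPM in vehicle and 33.5, 26.9, 32.7 and 20.8 CPM in ISOGK mice, with ISOGK mouse 4 at the bottom as in *Vsig4*. For single members the gene with the highest r was *Prss8* for *Clec4f* (0.984), *Togaram1* for *Timd4* (0.991), *Plagl1* for *Vsig4* (0.988), *Ifi27l2a* for *Cd5l* (0.980) and *Trip11* for *Marco* (0.993). It was *Sh3tc1* for *Cd163* (0.991), *Agps* for *Adgre1* (0.974), *Morc3* for *Csf1r* (0.991) and *Exosc3* for *Folr2* (0.976). These are descriptions, since the highest of 11459 coefficients over 8 mice is large by selection.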

How the data were processed

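Single-end liver RNA-seq reads were mapped by the authors using HISAT2, and StringTie gave gene-level totals. The deposited table holds raw counts for each gene symbol, not normalized, and the submitters' processing notes name mm10. Use of strand is not given in the sources used here. Of 8 columns all were used, DMSO columns as vehicle. Counts were tested with edgeR 4.0.16 in R 4.3.3 (filterByExpr, minimum count 10, TMM factors, robust quasi-likelihood F test, Benjamini-Hochberg adjustment over 12307 genes, threshold 0.05), with no covariate. CPM used TMM-scaled library sizes, and log2 CPM a prior count of 2. On simulated counts with 3-fold changes (12324 genes tested), the fit recovered 193 of 195 changed genes with 4 false calls. Every simulated gene had the same spread between mice (coefficient of variation 0.164). This recovery therefore does not apply to the members with a wider spread, such as *Vsig4* and *Marco*. DESeq2 1.42.0 and limma 3.58.1 served as alternatives. Exon lengths came from the GENCODE annotation of mm10. The members and all gene lists were chosen with earlier results of these data known. All members were named, and of each list the genes with adjusted p under 0.05, at most 4, or otherwise the 2 with the smallest. *Cd207*, *Csf1*, *Il34*, *Hmgxb3*, the genes most like single members and the genes standing apart in single mice were named after their values were seen. Some genes that these rules would name are not reported here.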

Additional observations from a re-analysis of the deposited data

How the results depend on the processing

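No member passed the threshold in any alternative apart from *Cd5l* and *Timd4*. *Cd5l* passed with library size alone (log2 fold change -0.53, adjusted p = 0.0160), with DESeq2's Wald test (-0.39, adjusted p = 0.0159) and without ISOGK mouse 1 (-0.47, edgeR adjusted p = 0.0337), and ranged from -0.47 to -0.33 with each mouse left out. The fold change of *Clec4f* turned negative with library size alone (-0.075) and without both vehicle mouse 1 and ISOGK mouse 4 (-0.15), and ranged from -0.20 to 0.23 with each mouse left out. *Csf1r* turned to 0.055 without both mice. Leaving out each mouse gave -1.17 to -0.42 for *Timd4*, -0.76 to -0.13 for *Vsig4*, -1.73 to -0.51 for *Marco*, -0.97 to -0.33 for *Adgre1* and 0.42 to 1.197 for *Cd163*. The *Vsig4* estimate went beyond that range with limma-voom (-1.12) and with the replicate number as a block (-0.91). The count of genes called, 929, was 1435 with DESeq2's Wald test, 447 without both mice and 379 to 1235 with each mouse left out. It was 511, 379, 496 and 550 without vehicle mice 1 to 4 and 985, 471, 1235 and 679 without ISOGK mice 1 to 4. The cause of these shifts was not tested.

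Over all tested genes, same-numbered mice did not deviate together, with r between -0.01 and 0.08. The labels do not say that the numbers pair mice, and this r cannot show whether single genes go with the number. With the replicate number as a block, the SE fell to 0.19 for *Timd4*, 0.48 for *Marco*, 0.19 for *Adgre1* and 0.10 for *Csf1r*. It rose to 0.36 for *Clec4f*, 0.86 for *Vsig4* and 0.87 for *Cd163*. Whether the numbers mark a shared factor was not tested. A fit with the replicate block called 827 genes and *Timd4* (-0.93, edgeR adjusted p = 0.0271). The filter of at least 10 counts in every library left *Cd163* untested. At 8 to 95 counts *Cd163* was the member most limited by depth.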
